A study of Mus musculus with 12 samples.

Results

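The genes described are 10 mouse genes of transforming growth factor beta (TGF-beta) signalling and its close relative, bone morphogenetic protein (BMP) signalling. They are the ligand gene Tgfb1, the receptor genes Tgfbr1 and Tgfbr2, the signal carrier Smad3, the inhibitors Smad6, Smad7 and Skil, and the inhibitor-of-DNA-binding genes Id1, Id2 and Id3. They were chosen by symbol and function, with earlier results of these data known and with no threshold on a measured value, and all 10 were found among the 54532 genes of the expression table. RNA sequencing was done on bone-marrow-derived macrophages and on osteoclasts, the multinucleated cells that resorb bone, with 3 libraries in each of 4 groups. All cells came from the marrow of wild-type (WT) mice, whose age, sex and strain the labels do not give, and all were grown with CMG, which supplies M-CSF, the growth factor that macrophages need. Macrophages got no RANKL, and osteoclasts were made from such macrophages with RANKL, the cytokine that drives osteoclast formation, at 100 ng/mL per the sample labels, while the growth protocol gives a range that ends at this dose. On day 5 one group of each cell type was given lipopolysaccharide (LPS), a component of the outer membrane of bacteria, at 100 ng/mL for 3 h, and the other was left untreated. The labels do not say whether the 3 libraries of a group came from separate mice or cultures, so the p-values measure only the spread between these libraries, which may be technical. These are bulk samples, in which fewer cells of a type and less RNA per cell cannot be told apart.

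TGF-beta is secreted in a latent form. Once released it binds the type II receptor TGFBR2, which activates the type I receptor TGFBR1, and the receptor then phosphorylates SMAD2 and SMAD3, which enter the nucleus with SMAD4. BMPs act through other receptors and SMAD1, SMAD5 and SMAD9, and the ID genes are their classical targets. SMAD6 and SMAD7 are inhibitory SMADs made in a negative feedback loop, and the proteins SKI and SnoN (from Skil) are corepressors that bind SMADs in the nucleus. ID proteins have a helix-loop-helix but no DNA-binding region, so they hold E proteins and related factors away from DNA. In bone, matrix-stored TGF-beta is released when osteoclasts resorb it, and TGF-beta can promote osteoclast formation from precursors.

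The 4 promoter sequences shown were picked because they hold a motif: those of Id2, Id3 and Smad6, which were lower in osteoclasts and in LPS-treated macrophages, and that of Tgfbr1, which was much higher in osteoclasts. Smad3 was also lower in both comparisons, and its window, which holds none of the motifs, is not printed. The sequences are RefSeq windows of build GRCm38.p6, from 250 bases before to 50 bases after an annotated start, written 5′ to 3′ on the gene's strand. Capitals mark 3 short motifs known to bind SMADs: the SMAD box CAGAC or its reverse complement GTCTG, the GC-rich motif GGCGCC, and the palindrome GTCTAGAC, which holds no SMAD box. Both strands were searched.
Id2, chr12:25096043-25096342, minus strand: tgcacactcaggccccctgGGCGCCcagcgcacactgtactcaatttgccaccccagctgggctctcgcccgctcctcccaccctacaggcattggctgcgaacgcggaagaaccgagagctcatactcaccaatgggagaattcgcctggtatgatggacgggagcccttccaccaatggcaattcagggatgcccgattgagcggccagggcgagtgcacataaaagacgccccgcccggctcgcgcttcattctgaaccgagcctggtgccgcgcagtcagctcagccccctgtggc
Id3, chr4:136143572-136143871, plus strand: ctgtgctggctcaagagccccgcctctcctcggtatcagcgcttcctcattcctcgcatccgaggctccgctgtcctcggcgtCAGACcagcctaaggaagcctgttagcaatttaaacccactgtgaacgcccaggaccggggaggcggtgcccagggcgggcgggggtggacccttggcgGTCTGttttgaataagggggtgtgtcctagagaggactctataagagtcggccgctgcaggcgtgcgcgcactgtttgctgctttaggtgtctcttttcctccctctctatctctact
Smad6, chr9:64022010-64022309, minus strand: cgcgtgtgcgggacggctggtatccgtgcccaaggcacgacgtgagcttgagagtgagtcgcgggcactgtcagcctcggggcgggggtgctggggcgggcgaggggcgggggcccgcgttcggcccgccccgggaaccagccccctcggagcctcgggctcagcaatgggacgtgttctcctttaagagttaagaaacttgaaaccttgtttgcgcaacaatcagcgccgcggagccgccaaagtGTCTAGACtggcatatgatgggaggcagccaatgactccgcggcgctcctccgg
Tgfbr1, chr4:47352972-47353271, plus strand: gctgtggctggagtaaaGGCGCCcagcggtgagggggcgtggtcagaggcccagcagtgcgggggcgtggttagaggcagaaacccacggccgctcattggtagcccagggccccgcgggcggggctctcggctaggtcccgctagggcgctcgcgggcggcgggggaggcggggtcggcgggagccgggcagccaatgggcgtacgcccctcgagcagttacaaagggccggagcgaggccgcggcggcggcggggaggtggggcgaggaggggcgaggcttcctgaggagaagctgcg
The Id2 window held 1 GC-rich motif, the Id3 window 2 SMAD boxes, the Smad6 window 1 palindrome and the Tgfbr1 window 1 GC-rich motif. GENCODE places the starts of Id2 and Id3 upstream of these windows. RefSeq windows were matched for 7 of the 10 genes, 8 windows in all because Tgfbr1 has a second one, and 6 of the 8 held a motif. The windows of Tgfb1 and Smad3 held none of these letters, and those of Tgfbr2 and the second Tgfbr1 start held 1 SMAD box each. Among all 32851 promoter windows of the same length, 49.6% held a SMAD box, 11.9% the GC-rich motif and 0.213% the palindrome. The share with any of the 3 was not counted, but it is at least 49.6%. The motifs were chosen with the promoter sequences in view, so the rarity of a motif is not a result. A match is a description and not a binding site. Id1, Smad7 and Skil are named only.

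Between 15651770 and 20281456 reads were recovered per library from the deposited values, and 9728 to 10301 genes reached 1 FPKM, the expression unit used here (reads per kilobase of gene, scaled per library). Counts of replicate libraries differed beyond counting error (chi-square divided by its degrees of freedom, 2.54 to 11.6). Pairs of LPS-treated osteoclast libraries were at 7.36 to 11.6 and all other pairs at 2.54 to 5.90. The fit used below takes 1 spread per gene over all groups. Summed FPKM of 10 osteoclast markers were 29220 to 32220 in osteoclasts, 16.3 to 20.5 in untreated macrophages and 24.7 to 29.0 in LPS-treated ones, where Acp5 had 14.6 ± 2.3 against 0.950 ± 0.70 FPKM (SD, n = 3). The sums of 8 macrophage markers were 1730 to 1830 in osteoclasts, 2101 to 2176 in untreated macrophages and 3177 to 3244 in LPS-treated ones. Most of the macrophage marker sum in osteoclasts was Cd68, at 1402 ± 43 FPKM in untreated osteoclasts against 670 ± 31 FPKM in untreated macrophages, and Csf1r, at 310.2 ± 6.9 against 441 ± 3.9 FPKM. Adgre1 (33.1 against 428 FPKM), Mrc1 (2.57 against 293 FPKM), Fcgr1 (0.429 against 45.1 FPKM), Cx3cr1 (0.486 against 142 FPKM) and Mertk (1.79 against 19.4 FPKM) had far lower means in untreated osteoclasts. Mitochondrial reads made up 5.16 to 6.18% of osteoclast libraries and 1.27 to 1.62% of macrophage libraries. Summed FPKM of 8 fibroblast and stromal markers were 27.9 to 38.4 in untreated and 31.3 to 37.8 in LPS-treated macrophages, against 0.245 to 1.07 in osteoclasts. Of these markers Col1a1 (19.9 ± 2.9 against 0.0660 ± 0.029 FPKM in untreated cells, SD, n = 3), Col1a2 (8.59 ± 2.0 against 0.0302 ± 0.016 FPKM), Postn, Pdgfrb and Col3a1 had higher means in macrophages. Lum was at 0 in all 12 libraries, and Dcn was at 0 in macrophages and at a mean of 0.171 FPKM in untreated and 0.248 FPKM in LPS-treated osteoclasts. Mast cell and megakaryocyte markers summed to 593 to 924 FPKM in macrophages and 8.11 to 19.4 FPKM in osteoclasts, most of it Pf4. Neutrophil markers summed to 4.46 to 12.7 FPKM in macrophages and 0.247 to 1.76 FPKM in osteoclasts. Dendritic cell markers summed to 1.27 to 1.77 FPKM in untreated macrophages, 6.54 to 6.90 FPKM after LPS and 7.95 to 9.53 FPKM in osteoclasts. Different markers made up these sums. With LPS in macrophages Xcr1 went from 0.150 to 5.31 FPKM and Itgax from 1.31 to 1.15 FPKM, while untreated osteoclasts had 0.0784 and 7.63 FPKM. Endothelial markers summed to 2.65 to 3.04 FPKM in untreated macrophages, 4.90 to 4.98 FPKM after LPS and 2.29 to 3.45 FPKM in osteoclasts. Between untreated macrophages and untreated osteoclasts the endothelial markers went in different directions, with Cdh5 at 1.03 against 0.0744 FPKM and Kdr at 1.72 against 0.222 FPKM, but Vwf at 0.140 against 2.37 FPKM. Osteoblast markers summed to at most 1.62 FPKM in any library. T, B and NK cell markers summed to at most 0.134 FPKM and erythroid markers to at most 0.135 FPKM in any library. The stromal, neutrophil and dendritic cell sums, Pf4, the endothelial markers Cdh5, Kdr and Vwf and the mitochondrial share thus moved with the cell type in every osteoclast comparison below, and the osteoclast, macrophage, dendritic cell and endothelial sums also with LPS in macrophages. With LPS in macrophages the mast cell and megakaryocyte sum went from 593 to 680 FPKM without it to 853 to 924 FPKM with it, the osteoblast sum from 1.37 to 1.62 to 0.641 to 0.880 FPKM, and the mitochondrial share from 1.504 to 1.62% to 1.27 to 1.37%. With LPS in osteoclasts the stromal sum went from 0.245 to 0.393 FPKM to 0.421 to 1.07 FPKM. The mast cell and megakaryocyte sum went there from 8.11 to 10.2 FPKM to 11.3 to 19.4 FPKM. The macrophage marker sums, mostly Cd68 and Csf1r, overlapped between untreated and LPS-treated osteoclasts. Among these markers mean Adgre1 went from 33.1 to 62.2 FPKM with LPS in osteoclasts and Cd14 from 16.2 to 45.3 FPKM. Fcgr1 went from 0.429 to 1.496 FPKM and Mrc1 from 2.57 to 2.79 FPKM. Cd68, Csf1r, Mertk and Cx3cr1 had lower means in osteoclasts with LPS than without it. The part of all these in the results was not tested.

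Differences below are on the log2(FPKM + 1) scale with their standard error (SE), and folds are ratios of mean FPKM. A gene was called where limma's adjusted p over the 11335 genes tested was under 0.05, and all 10 genes passed the filter for testing. The groups differed in much of the transcriptome. For LPS in macrophages 69.9% of all genes tested were called, for LPS in osteoclasts 17.7%, for osteoclasts against macrophages 77.8% without LPS and 83.9% with it, and for the interaction, which asks whether the LPS effect differed between cell types, 56.6%. Of the 10 genes, 2 rose and 7 fell with LPS in macrophages, where 36.8% of all genes rose and 33.1% fell. With LPS in osteoclasts 1 rose and 3 fell, where 11.1% of all genes rose and 6.59% fell. In osteoclasts against macrophages without LPS 2 were higher and 8 lower, where 38.8% of all genes were higher and 39.0% lower, and with LPS 3 were higher and 7 lower, where the shares were 40.9% and 43.0%. Smad6, among the lower ones in both, passed the filter only through macrophage libraries, where it was high. The median difference of the 10 genes was -1.17 for LPS in macrophages, -0.11 for LPS in osteoclasts, and -2.24 and -1.35 for the cell types without and with LPS, beside medians over all genes of 0.02, 0.01, 0.00 and -0.02. Groups were fully separated, with no overlap of their libraries, for 9 of the 10 genes with LPS in macrophages (74.0% of all genes) and for 8 in osteoclasts (34.0%). They were separated for all 10 between untreated cell types (81.4%) and for all 10 between LPS-treated ones (83.6%). Each cell type comparison shares a group with each LPS comparison, so these counts are not independent of each other.

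The scale of the table bears on small differences. By inference from the values, the table was scaled to the typical gene. Rescaled to a fixed total (TPM), the median of all genes moved to -0.55 for LPS in macrophages, -0.38 and 0.12 for the cell types without and with LPS and 0.51 for the interaction. Quantile normalization moved it to -0.14 for LPS in macrophages. On TPM 18.5% and after quantile normalization 37.0% in place of 52.6% of the macrophage LPS calls were higher. On TPM 1 of the 10 genes was higher and 9 lower with LPS in macrophages, and 1 was higher and 8 lower in untreated osteoclasts. For LPS in osteoclasts, 62.8% of calls were higher as deposited, 43.5% on TPM and 38.5% after quantile normalization. The share of higher calls among cell type differences without LPS was 49.9% as deposited and 29.9% on TPM. For the interaction it was 47.0% as deposited, 82.0% on TPM and 59.9% after quantile normalization. Directions that turn are given with each gene. The counts of the pathway lists below are on the deposited scale only and were not made on the other scales, where they may differ.

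**Figure D1:**
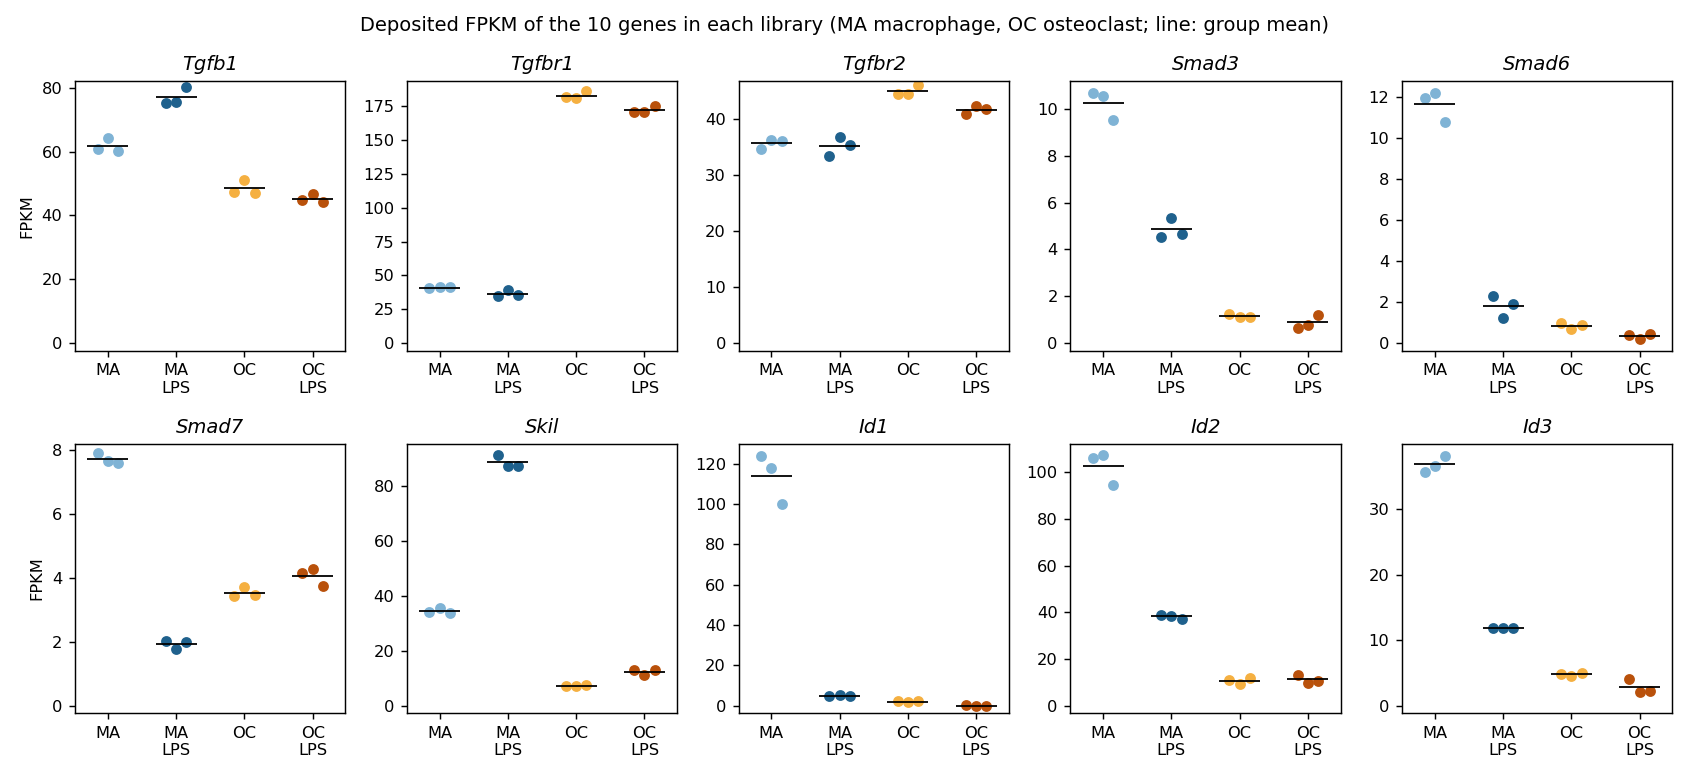
FPKM of each of the 10 genes in the 12 libraries, with 1 panel per gene and its own axis, points for libraries and a bar for the mean of 3. Tgfbr1 is the gene whose osteoclast libraries sit far above the macrophage ones, at 171 to 186 against 34.5 to 41.2 FPKM, while Id1 falls from at least 100.1 FPKM in untreated macrophages to 0.0435 FPKM or 0 in LPS-treated osteoclasts.

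Tgfb1 encodes the ligand TGF-beta 1 (ENSMUSG00000002603, chromosome 7, 25687002 to 25705077, plus strand, GRCm38). Its level was 61.0, 64.3 and 60.3 FPKM in untreated macrophages, 75.3, 75.5 and 80.4 FPKM after LPS, 47.5, 51.2 and 47.2 FPKM in untreated osteoclasts, and 44.8, 46.6 and 44.2 FPKM in osteoclasts after LPS. The 4 groups did not overlap, and LPS-treated macrophages stood highest. With LPS in macrophages it rose 1.25-fold, by 0.31 (SE 0.04, adjusted p = 5.06e-05), but on the TPM scale it fell by 0.33 and after quantile normalization by 0.45 (both called), so the direction depends on the scaling. In osteoclasts LPS gave -0.10 (adjusted p = 0.143), which did not pass the test, but passed it on TPM, at -0.17 (adjusted p = 0.0211), and after quantile normalization, at -0.19 (adjusted p = 0.00418). Tgfb1 was lower in osteoclasts than in macrophages, by -0.34 without LPS (adjusted p = 1.72e-05) and by -0.76 with LPS (adjusted p = 7.20e-09). Without LPS the difference was -0.76 on TPM and -0.65 after quantile normalization, and with LPS it was -0.40 after quantile normalization.

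Several genes whose products keep TGF-beta latent or release it changed by more than the ligand gene did. Of the 11 genes of the ligand and latency list, Tgfb1 included, 8 were tested, and with LPS in macrophages 3 rose, 2 fell and 3 were not called, beside 36.8% of all genes that rose and 33.1% that fell, the shares against which each list count for LPS in macrophages below is to be read. Nrros, which encodes a protein that anchors latent TGF-beta on myeloid cells, fell in macrophages from 49.7 ± 1.2 to 9.17 ± 0.14 FPKM (SD, n = 3), a difference of -2.32 (adjusted p = 4.53e-12), and in osteoclasts from 11.5 to 12.5 FPKM without LPS to 7.44 to 8.95 FPKM with it, a difference of -0.50 (adjusted p = 5.55e-05). Furin, the protease that cuts the TGF-beta precursor, rose in macrophages from 30.8 ± 1.5 to 64.5 ± 0.96 FPKM (difference 1.04, adjusted p = 6.01e-10). Ltbp3, a latent TGF-beta binding protein, was higher in untreated osteoclasts (28.9 ± 2.3 FPKM) than in untreated macrophages (7.96 ± 0.60 FPKM), a difference of 1.74 (adjusted p = 6.56e-10). Tgfb3, Thbs1, which encodes thrombospondin 1, an activator of latent TGF-beta, and Lrrc32 had higher means in macrophages: Thbs1 stood at 45.3 ± 6.4 against 0.238 ± 0.091 FPKM, and Tgfb3 at 1.93 ± 0.37 FPKM against at most 3 reads per library in untreated osteoclasts, at least 37.9-fold lower. All 3 reached 1 FPKM only in macrophage libraries and are given with no test. These genes are also made by stromal cells, whose marker sum was 27.9 to 38.4 FPKM in untreated macrophages and 0.245 to 0.393 FPKM in untreated osteoclasts. Its part in the difference was not tested.

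Tgfbr1, the type I receptor (ENSMUSG00000007613, chromosome 4, 47353222 to 47414931, plus strand), had by far the highest level of the 10 genes in osteoclasts. It stood at 40.4, 41.2 and 41.2 FPKM in untreated macrophages, 34.5, 38.9 and 35.3 FPKM after LPS, 182, 181 and 186 FPKM in untreated osteoclasts, and 171, 171 and 175 FPKM in osteoclasts after LPS. All 6 osteoclast libraries were above all 6 macrophage libraries, 4.47-fold without LPS (difference 2.13, SE 0.04, adjusted p = 6.41e-13) and 4.75-fold with LPS (difference 2.22, adjusted p = 3.68e-13). With LPS it fell in macrophages by 0.17 (adjusted p = 0.00294), by 0.82 on TPM and by 0.77 after quantile normalization, and in osteoclasts gave -0.09 (adjusted p = 0.183), which passed the test after quantile normalization, at -0.19 (adjusted p = 0.0207). Its interaction was 0.09 (adjusted p = 0.247). It passed the test without LPS-treated macrophage replicate 2, at 0.14 (adjusted p = 0.0274), on TPM at 0.66 and after quantile normalization at 0.57.

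Tgfbr2, the type II receptor (ENSMUSG00000032440, chromosome 9, 116084293 to 116175360, minus strand), differed far less between the groups. It was 34.6, 36.2 and 36.0 FPKM in untreated macrophages, 33.4, 36.8 and 35.3 FPKM after LPS, 44.4, 44.5 and 46.1 FPKM in untreated osteoclasts, and 40.8, 42.3 and 41.7 FPKM after LPS. All osteoclast libraries were above all macrophage libraries, and the macrophage groups overlapped. The difference between osteoclasts and macrophages was 0.33 without LPS (adjusted p = 9.48e-06), which on TPM turned to -0.08 and was not called (adjusted p = 0.167), and 0.24 with LPS (adjusted p = 1.36e-04). After quantile normalization these were 0.11 and 0.52, both called, and with LPS it was 0.40 on TPM. LPS gave -0.02 in macrophages (adjusted p = 0.692; -0.66 on TPM and -0.60 after quantile normalization, both called) and -0.11 in osteoclasts (adjusted p = 0.0839). The osteoclast value passed the test on TPM, at -0.18, and after quantile normalization, at -0.19. The interaction was -0.09 (adjusted p = 0.196), and turned to 0.48 on TPM and 0.41 after quantile normalization, both called.

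A ratio within 1 library does not depend on how the library was scaled. Tgfbr1 over Tgfbr2 was 1.14 to 1.17 in untreated macrophages, 0.999 to 1.06 after LPS, 4.04 to 4.10 in untreated osteoclasts and 4.03 to 4.20 after LPS. All osteoclast ratios were above all macrophage ratios. Of the 5 TGF-beta receptor genes in the list, Tgfbr1 and Tgfbr2 included, 4 were tested, and with LPS in macrophages 1 rose, 2 fell and 1 was not called. Eng, a co-receptor gene best known from endothelial cells, was lower in untreated osteoclasts, at 1.51 ± 0.19 against 9.63 ± 0.39 FPKM. Acvrl1, a type I receptor gene likewise best known from endothelial cells, had 0.529 ± 0.044 against 7.59 ± 0.073 FPKM, which is given with no test because it reached 1 FPKM only in macrophage libraries. The endothelial markers Cdh5 and Kdr given above also had lower means in osteoclasts and Vwf a higher one, and their part was not tested. With LPS in macrophages Eng rose to 17.7 ± 2.3 FPKM (difference 0.81, adjusted p = 5.48e-06) and Acvrl1 fell to 5.45 ± 0.42 FPKM (difference -0.42, adjusted p = 5.50e-05). The BMP and activin type I receptors Acvr1 and Acvr1b rose with LPS in macrophages, from 6.37 ± 0.42 to 14.6 ± 0.68 FPKM and from 8.48 ± 0.41 to 16.9 ± 1.8 FPKM, differences of 1.08 and 0.91.

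**Figure D2:**
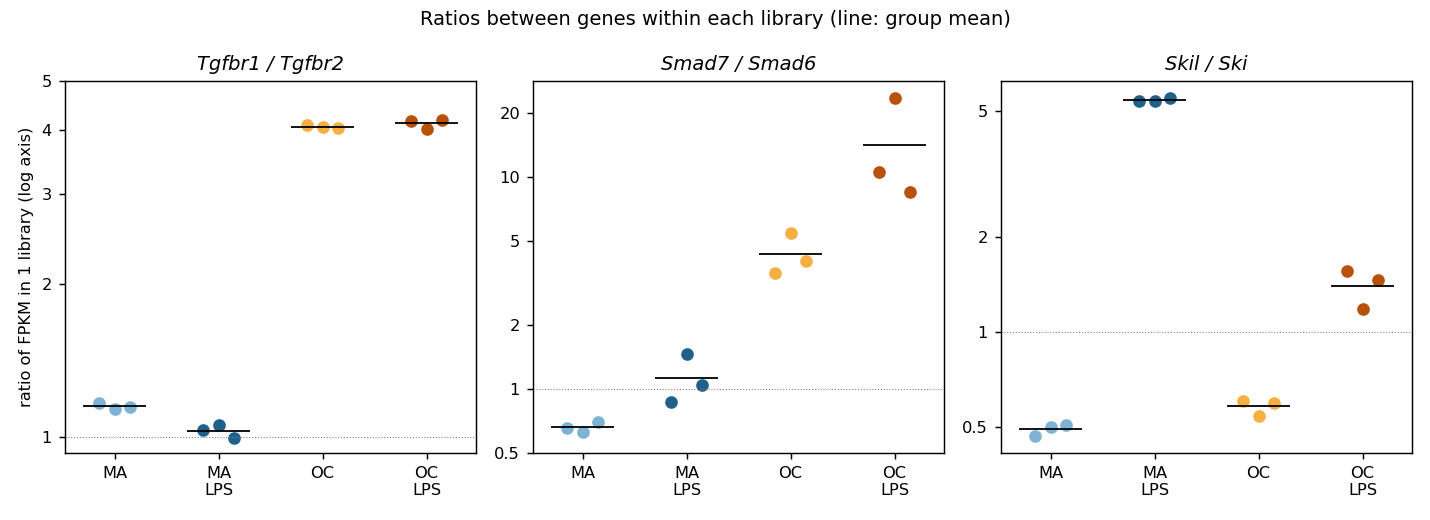
Ratios of FPKM within each library for 3 gene pairs on log axes, with 1 point per library and 4 groups on the x axis. Tgfbr1 over Tgfbr2 separates the cell types, Smad7 over Smad6 is lowest in untreated macrophages and highest in LPS-treated osteoclasts, and Skil over Ski is highest in LPS-treated macrophages.

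Smad3, a carrier of the TGF-beta signal (ENSMUSG00000032402, chromosome 9, 63646767 to 63757994, minus strand), was highest in untreated macrophages. Its level was 10.7, 10.6 and 9.55 FPKM there, 4.54, 5.34 and 4.67 FPKM after LPS, 1.24, 1.12 and 1.12 FPKM in untreated osteoclasts, and 0.656, 0.784 and 1.20 FPKM in osteoclasts after LPS. The macrophage groups did not overlap and both were above every osteoclast library, and the osteoclast groups overlapped through LPS replicate 3. LPS lowered it 2.12-fold in macrophages (difference -0.95, SE 0.10, adjusted p = 2.48e-06; -1.65 on TPM), and in osteoclasts the difference was -0.21 (adjusted p = 0.162), or -0.33 (adjusted p = 0.0155) without LPS-treated osteoclast replicate 3 and -0.12 without LPS-treated osteoclast replicate 1. Untreated osteoclasts held 8.86-fold less than untreated macrophages (difference -2.38, adjusted p = 2.85e-10), and LPS-treated osteoclasts 5.52-fold less than LPS-treated macrophages (difference -1.65, adjusted p = 6.75e-09). The interaction was 0.74 (SE 0.14, adjusted p = 6.10e-04), and 1.28 on TPM. With a pseudocount of 0.1 the LPS difference in osteoclasts was -0.40 (adjusted p = 0.118), and with voom the LPS difference in osteoclasts was -0.45 (adjusted p = 0.128) and that between LPS-treated cell types was -2.51.

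The other signal-carrying SMADs did not all follow Smad3. With LPS in macrophages 2 of the 5 tested rose, 2 fell, Smad3 among them, and 1 was not called, beside 36.8% and 33.1% of all genes. Smad4, the partner shared by both branches, rose from 12.2 ± 0.27 to 19.4 ± 0.39 FPKM (difference 0.63, adjusted p = 7.82e-08), a difference of 0.03 that was not called on TPM (adjusted p = 0.666). Smad2 rose from 10.0 ± 0.43 to 13.9 ± 0.33 FPKM (difference 0.44), which turned to -0.17 on TPM. Smad5, a carrier of the BMP signal, fell by 0.28 (adjusted p = 5.07e-04). In osteoclasts the BMP carrier Smad1 fell with LPS from 4.04 ± 0.44 to 2.69 ± 0.29 FPKM (difference -0.45, adjusted p = 0.00242).

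Smad6, an inhibitory SMAD of the BMP branch (ENSMUSG00000036867, chromosome 9, 63953076 to 64022059, minus strand), is the gene whose promoter window above holds the palindrome. It was 11.9, 12.2 and 10.8 FPKM in untreated macrophages, 2.30, 1.21 and 1.89 FPKM after LPS, 0.981, 0.683 and 0.863 FPKM in untreated osteoclasts, and 0.394, 0.182 and 0.445 FPKM after LPS. No 2 groups overlapped, and untreated macrophages were high. Smad6 passed the filter for testing only through the macrophage libraries, so its cell type differences and its interaction are given with no test. LPS lowered it 6.47-fold in macrophages (difference -2.19, SE 0.13, adjusted p = 1.82e-08). Untreated osteoclasts were 13.8-fold below untreated macrophages (difference -2.78), and with LPS the difference between cell types was -1.05 (5.29-fold). In osteoclasts, where the gene had 37 to 58 reads per library without and 9 to 26 reads with LPS, the LPS difference was -0.46 (2.48-fold lower, adjusted p = 0.0327). That call was lost with no filter (adjusted p = 0.0975) and without untreated replicate 1 (-0.41, adjusted p = 0.105), untreated replicate 3 (-0.45, adjusted p = 0.0893), LPS replicate 1 (-0.49, adjusted p = 0.0603) or LPS replicate 2 (-0.37, adjusted p = 0.0962). The log2(FPKM + 1) scale understates differences at such levels. With a pseudocount of 0.1 the LPS difference in osteoclasts was -1.14 (adjusted p = 0.0107), and that between LPS-treated cell types was -2.12. With voom they were -1.33 and -2.36, and on TPM the first was -0.84.

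Smad7, which blocks the TGF-beta type I receptor and also acts on BMP receptors (ENSMUSG00000025880, chromosome 18, 75367529 to 75395935, plus strand), behaved unlike Smad6 in osteoclasts. It was 7.90, 7.68 and 7.61 FPKM in untreated macrophages, 2.01, 1.78 and 1.98 FPKM after LPS, 3.44, 3.72 and 3.48 FPKM in untreated osteoclasts, and 4.14, 4.28 and 3.76 FPKM after LPS. No 2 groups overlapped, and LPS-treated macrophages were lowest. LPS lowered it 4.02-fold in macrophages (difference -1.58, SE 0.06, adjusted p = 1.18e-10; -2.43 on TPM). In osteoclasts the difference was 0.15 (adjusted p = 0.0793), and 0.20 (adjusted p = 0.0389) without LPS-treated osteoclast replicate 3. The order of the cell types differed with and without LPS. Smad7 was 2.18-fold lower in osteoclasts without LPS (difference -0.94, adjusted p = 9.30e-09; -1.46 on TPM) and 2.11-fold higher with LPS (difference 0.79, adjusted p = 3.86e-08). The interaction was 1.73 (SE 0.08, adjusted p = 3.99e-09). Within a library, Smad7 over Smad6 was 0.631 to 0.705 in untreated macrophages, 0.875 to 1.47 after LPS, 3.51 to 5.44 in untreated osteoclasts and 8.45 to 23.5 after LPS. The last range rests on few Smad6 reads.

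Skil, which encodes the SMAD corepressor SnoN (ENSMUSG00000027660, chromosome 3, 31095058 to 31122577, plus strand), was the only one of the 10 genes to rise with LPS in both cell types under the deposited, TPM and quantile scalings and with voom. It was 33.9, 35.4 and 33.8 FPKM in untreated macrophages, 91.2, 87.3 and 87.5 FPKM after LPS, 7.24, 7.23 and 7.39 FPKM in untreated osteoclasts, and 12.96, 11.2 and 12.8 FPKM after LPS. No 2 groups overlapped, and all macrophage libraries were above all osteoclast libraries. LPS raised it 2.58-fold in macrophages (difference 1.34, SE 0.05, adjusted p = 2.05e-10; 0.71 on TPM and 0.69 after quantile normalization) and 1.69-fold in osteoclasts (difference 0.68, SE 0.05, adjusted p = 1.48e-06). Osteoclasts were 4.72-fold lower without LPS (difference -2.09, adjusted p = 2.91e-12) and 7.19-fold lower with LPS (difference -2.75, adjusted p = 2.53e-13). The LPS effect was smaller in osteoclasts, by an interaction of -0.66 (SE 0.07, adjusted p = 7.29e-06), but on TPM and after quantile normalization the interaction was -0.05 and was not called (adjusted p = 0.482 and 0.506).

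Skil and its paralogue Ski, which encodes the corepressor SKI, moved in opposite directions with LPS. Ski fell in macrophages from 70.2 ± 3.1 to 16.4 ± 0.57 FPKM (difference -2.04, adjusted p = 1.13e-11) and in osteoclasts from 12.6 ± 0.67 to 8.87 ± 0.58 FPKM (difference -0.46, adjusted p = 9.13e-05). Skil over Ski within a library was 0.466 to 0.506 in untreated macrophages, 5.37 to 5.51 after LPS, 0.543 to 0.604 in untreated osteoclasts and 1.18 to 1.56 after LPS. In untreated cells of both types the ratio was thus below 1, and after LPS it was above 1. Of the 12 inhibitor and corepressor genes, Smad6, Smad7 and Skil included, 11 were tested, and all of these were called with LPS in macrophages, 5 higher and 6 lower, beside 69.9% of all genes called. This split is that of the deposited scale and was not counted on TPM or after quantile normalization. The corepressor Tgif1 fell from 9.005 ± 0.40 to 4.97 ± 0.50 FPKM and Pmepa1, itself a TGF-beta target that limits SMAD signalling, fell from 39.7 ± 0.28 to 23.3 ± 1.6 FPKM. The ubiquitin ligase gene Smurf1 was higher in untreated osteoclasts (19.9 ± 0.42 FPKM) than in untreated macrophages (10.4 ± 0.26 FPKM; difference 0.87, adjusted p = 5.37e-09), and rose with LPS in osteoclasts to 28.5 ± 1.7 FPKM (difference 0.50, adjusted p = 1.71e-05).

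**Figure D3:**
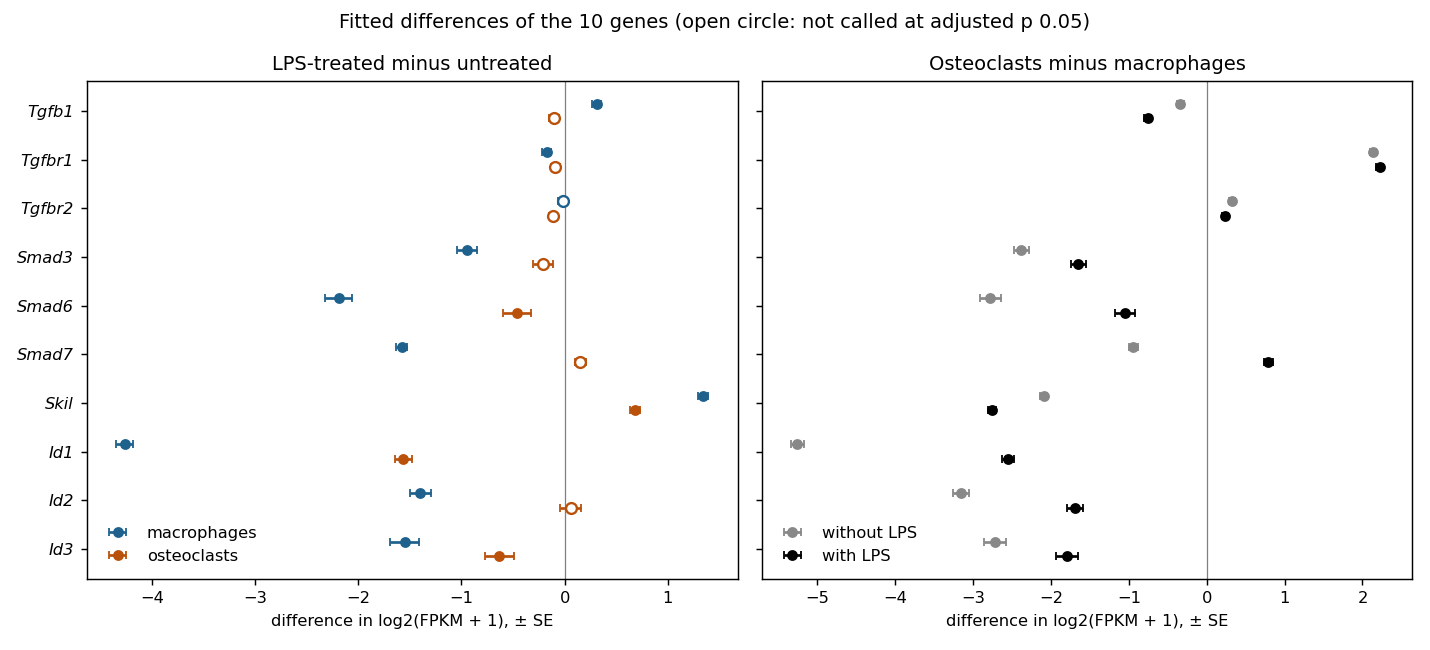
Fitted differences of the 10 genes in log2(FPKM + 1), with bars for the standard error. LPS effects in each cell type are on the left and osteoclast-minus-macrophage differences on the right, and open circles mark genes not called. The macrophage LPS effects run from -4.27 (Id1) to 1.34 (Skil), the osteoclast ones from -1.56 (Id1) to 0.68 (Skil), and Tgfbr1 stands apart on the right at 2.13 and 2.22.

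The 3 ID genes were high in untreated macrophages and lower in every other group. Id1 (ENSMUSG00000042745, chromosome 2, 152736251 to 152737410, plus strand) was 124, 118 and 100.1 FPKM in untreated macrophages, 4.93, 5.20 and 4.72 FPKM after LPS, and 2.20, 1.73 and 2.08 FPKM in untreated osteoclasts. In LPS-treated osteoclasts it had 1 read in replicate 1, 0.0435 FPKM, and 0 reads in the other libraries. No 2 groups overlapped. Untreated osteoclasts held 34 to 47 Id1 reads per library, 56.9-fold less FPKM than untreated macrophages (difference -5.25, SE 0.08, adjusted p = 7.64e-14). A group with at most 3 reads in each library was taken to be at a floor, which for Id1 in LPS-treated osteoclasts was 0.147 FPKM, and folds against it are lower bounds. With LPS the gene was 23.0-fold lower in macrophages and at least 13.7-fold lower in osteoclasts (difference -1.56, adjusted p = 6.14e-08), and LPS-treated osteoclasts were at least 33.7-fold below LPS-treated macrophages. With a pseudocount of 0.1 the osteoclast LPS difference was -4.21 and that between LPS-treated cell types -5.48, and with voom they were -5.83 and -7.13. Floors cover counting error only.

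Id2 (ENSMUSG00000020644, chromosome 12, 25093799 to 25097140, minus strand) was 106, 107 and 94.8 FPKM in untreated macrophages, 39.0, 38.3 and 37.3 FPKM after LPS, 11.2, 9.13 and 11.9 FPKM in untreated osteoclasts, and 13.1, 9.87 and 10.7 FPKM in osteoclasts after LPS. Macrophage libraries were above osteoclast libraries throughout, and the osteoclast groups overlapped. LPS lowered it 2.69-fold in macrophages (difference -1.40, SE 0.10, adjusted p = 1.06e-07; -2.15 after quantile normalization). In osteoclasts the LPS difference of 0.06 was not called (adjusted p = 0.752), and was -0.01 on TPM and after quantile normalization. It was also below 0 without untreated osteoclast replicate 2 (-0.04) or LPS-treated osteoclast replicate 1 (-0.05). Osteoclasts held 9.57-fold less Id2 without LPS (difference -3.15, adjusted p = 3.77e-11) and 3.40-fold less with LPS (difference -1.69, adjusted p = 8.80e-09).

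Id3 (ENSMUSG00000007872, chromosome 4, 136143497 to 136145755, plus strand), whose promoter window above holds 2 SMAD boxes, was 35.7, 36.6 and 38.2 FPKM in untreated macrophages, 11.9 FPKM in each LPS-treated macrophage library, 4.75, 4.56 and 4.99 FPKM in untreated osteoclasts, and 4.09, 2.10 and 2.26 FPKM in osteoclasts after LPS. No 2 groups overlapped, and among LPS-treated osteoclasts replicate 1 stood above the other libraries. LPS lowered it 3.09-fold in macrophages (difference -1.55, SE 0.14, adjusted p = 8.52e-07) and 1.69-fold in osteoclasts (difference -0.63, adjusted p = 0.00865). The osteoclast call was lost when only the osteoclast libraries were fitted (adjusted p = 0.0778). Osteoclasts were 7.73-fold lower without LPS (difference -2.71, adjusted p = 2.89e-09) and 4.22-fold lower with LPS (difference -1.79, adjusted p = 1.17e-07). The 2 ID genes with RefSeq windows, Id2 and Id3, hold different motifs in them, as printed above.

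Summed over Id1, Id2 and Id3, a library held 233 to 266 FPKM in untreated macrophages, 53.97 to 55.9 FPKM after LPS, 15.4 to 18.99 FPKM in untreated osteoclasts and 11.97 to 17.2 FPKM after LPS. Id1 made up 44.8% of the sum in untreated macrophages, 8.99% after LPS and 11.4% in untreated osteoclasts, and was at its floor in LPS-treated osteoclasts. Id2 made up 40.5, 69.4, 61.2 and 80.3% in the same order of groups, and Id3 14.6, 21.6, 27.4 and 19.6%. By FPKM Id2 was thus the main ID transcript in every group but untreated macrophages, where Id1 and Id2 had like shares. These shares depend on the annotated exon lengths, 1160 bases for Id1, 2438 for Id2 and 1791 for Id3. Id4, the fourth of the family, had at most 3 reads in every library.

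**Figure D4:**
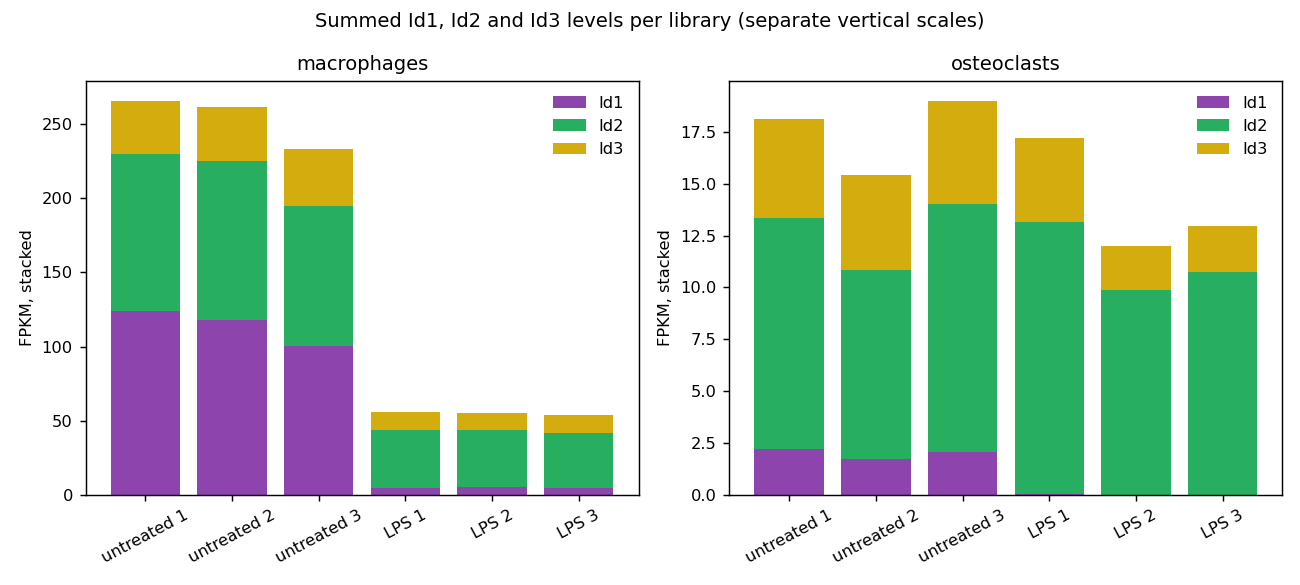
Summed FPKM of Id1, Id2 and Id3 in each of the 12 libraries, stacked by gene, with separate vertical scales for macrophages and osteoclasts. The 3 untreated macrophage libraries reach 233 to 266 FPKM, and the other groups are smaller, with Id2 the main part.

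The genes that ID proteins act on were measured too. Of the 5 E proteins and other partners tested, Lyl1 reached 1 FPKM only in untreated macrophages and is given with no test. With LPS in macrophages 1 of the other 4 rose, 2 fell and 1 was not called. Tcf3, an E protein gene, fell from 10.7 to 11.3 FPKM without LPS to 5.22 to 6.07 FPKM with it (difference -0.83, adjusted p = 7.77e-07), and Tcf4, another E protein gene, rose from 3.79 ± 0.064 to 8.77 ± 0.46 FPKM (difference 1.03, adjusted p = 1.19e-08). Tal1, a partner of E proteins in blood cell development, fell from 10.4 ± 0.54 to 4.87 ± 0.68 FPKM. Lyl1, another such partner, had 39.7 ± 3.0 FPKM without and 0.606 ± 0.16 FPKM with LPS. The following of the pathway and marker genes named beside the 10 have exon bases in common with a gene on the opposite strand: Csf1r 873 bases, Ccn2 665, Tgfb3 420, Id4 253, Bmp6 224, Thbs1 208, Ltbp3 182, Acp5 137, Acvrl1 127, Furin 118, Cx3cr1 78, Eng 61 and Lyl1 4, and Col3a1 has 141 and Smad5 100 in common with a gene on their own strand. Their values are uncertain to that extent, since the handling of strand is not given in the sources used here. Genes named below only for similar profiles were not checked for such overlap. In untreated osteoclasts Tcf12, also an E protein gene, was higher than in macrophages at 8.68 ± 0.15 against 3.67 ± 0.17 FPKM (difference 1.05, adjusted p = 3.43e-10).

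Target genes of the pathway other than the 10 did not move together. Of the 10 tested, Hamp reached 1 FPKM only in LPS-treated macrophages and is left out of the count. With LPS in macrophages 2 of the other 9 rose, 5 fell and 2 were not called. Tgfbi, which encodes a TGF-beta-induced matrix protein, fell from 129 ± 3.8 to 66.3 ± 3.2 FPKM in macrophages (difference -0.95) and from 6.32 ± 0.42 to 3.45 ± 1.1 FPKM in osteoclasts (difference -0.75). Klf10, a TGF-beta-inducible transcription factor gene, fell from 10.4 ± 0.78 to 1.70 ± 0.38 FPKM in macrophages (difference -2.09). Ccn2 was 18.5 ± 2.8 FPKM in untreated macrophages and 0.0579 ± 0.065 FPKM in untreated osteoclasts. The stromal marker sum given above was likewise high in macrophages and overlapped between untreated and LPS-treated macrophages, and its part in the cell type difference of Ccn2 was not tested.

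Over all pathway genes listed other than the 10, 44 of 66 were tested. Genes that reached 1 FPKM on only 1 side of a comparison are left out of these counts. The counts are on the deposited scale and were not made on TPM or after quantile normalization, where directions can turn. That leaves 42 genes for LPS in macrophages, where 16 rose, 14 fell and 12 were not called, beside 36.8% and 33.1% of all genes tested. With LPS in osteoclasts 5 of 44 rose, 8 fell and 31 were not called, beside 11.1% and 6.59%, but 11 of the 44 were below 1 FPKM in every osteoclast library, which limits how many could be called. Between cell types 11 of the 44 genes reached 1 FPKM only in macrophages and 1 only in osteoclasts. Of the other 32, 8 were higher and 20 lower in untreated osteoclasts, beside 38.8% and 39.0% of all genes tested, and with LPS 8 were higher and 21 lower, beside 40.9% and 43.0%. The shares over all genes include genes of the kind left out. Twsg1, a secreted BMP-binding protein gene, was among the higher ones, at 48.6 ± 0.82 against 9.34 ± 0.44 FPKM without LPS (difference 2.26, adjusted p = 7.19e-13). The lists were chosen with results of these data known, and are described by count only.

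**Figure D5:**
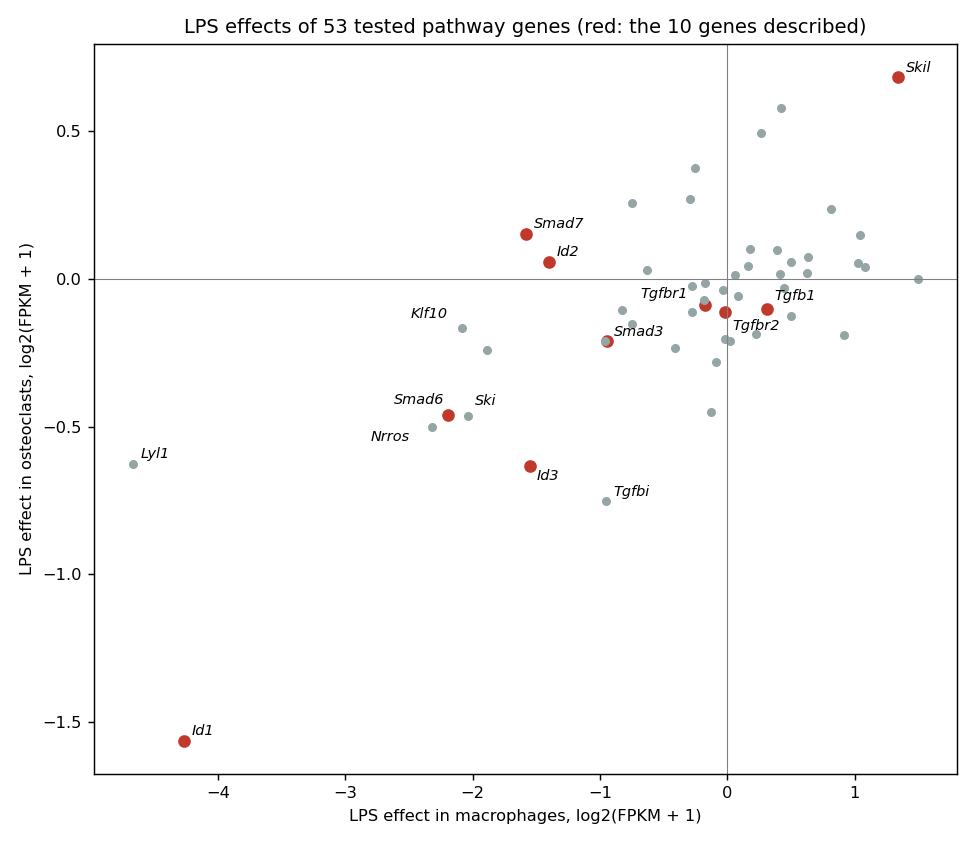
LPS effect in osteoclasts against that in macrophages for the 10 genes and the other pathway genes tested, in log2(FPKM + 1), with labels on the 10 genes (red) and on a few others. Skil (1.34 in macrophages and 0.68 in osteoclasts) is at the upper right and Id1 (-4.27 and -1.56) at the lower left, and 1 tested gene of the lists is not shown. The effects use different libraries, so they share no controls.

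The difference between the LPS effects of the cell types, the interaction, was called for 8 of the 10 genes, 6 higher and 2 lower in osteoclasts than in macrophages, beside 26.6% higher and 30.0% lower over all genes. For a gene that fell in macrophages, a positive value means a smaller fall in osteoclasts or none on this scale. Smad6, at 1.73, is among the 6 but is given with no test, and without it 5 of 9 were higher and 2 lower. The interaction was 1.46 for Id2 (SE 0.14, adjusted p = 3.41e-06), 0.92 for Id3 (SE 0.20, adjusted p = 0.00186; 1.43 on TPM) and -0.41 for Tgfb1 (SE 0.06, adjusted p = 1.34e-04). The Tgfb1 value turned to 0.16 on TPM and 0.25 after quantile normalization. The Id1 value of 2.70 (adjusted p = 2.20e-09) rests on the pseudocount, with Id1 at its floor in LPS-treated osteoclasts. It was 0.28 with a pseudocount of 0.1 (adjusted p = 0.277) and -1.33 with voom (adjusted p = 0.231), and as a log2 ratio of folds, with the floor in place of the level in LPS-treated osteoclasts, it was at most 0.75. On TPM and after quantile normalization 9 of the 10 interactions were higher and none lower, where 82.0% and 59.9% of the interaction calls over all genes were higher and the median of all genes on TPM was 0.51.

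Levels were ordered differently in the 4 groups. In untreated macrophages the order ran from Id1 and Id2, at 114 ± 12 and 103 ± 6.9 FPKM, which overlapped, through Tgfb1, Tgfbr1, Id3, Tgfbr2 and Skil to Smad6, Smad3 and Smad7 at 7.73 ± 0.15 FPKM. Id3 and Tgfbr2 overlapped, and so did Tgfbr2 and Skil. In LPS-treated macrophages Skil (88.7 ± 2.2 FPKM) and Tgfb1 led, and Smad7 and Smad6 came last and overlapped. Among them Id2 and Tgfbr1, Tgfbr1 and Tgfbr2, and Id1 and Smad3 overlapped too. In untreated and LPS-treated osteoclasts Tgfbr1, Tgfb1 and Tgfbr2 led with no overlap between neighbours. Smad6 was last without LPS and Id1 with LPS, and in LPS-treated osteoclasts Skil overlapped Id2 and Smad7 overlapped Id3. FPKM is per kilobase of annotated exons. An order of levels between genes thus assumes that the annotated length is that of the transcripts made, which was not tested.

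Genes with the most similar profiles were sought by the smallest root mean square (RMS) difference of centred log2(FPKM + 1) profiles over the 12 libraries, among 5448 genes whose group means span at least 1 on that scale. The closest matches were of Tgfbr1, with Acads (RMS difference 0.0468), Acad11 (0.0529) and Pdk1 (0.0642). Smad3 was matched by BC005537 (0.109), Enpp1 (0.121) and Tnfrsf21 (0.137), Smad6 by Nfic (0.172), Snx30 (0.196) and Cspg4 (0.218), and Smad7 by Rinl (0.123), Tgfbrap1 (0.126) and Snx33 (0.127). Skil was matched by Prdx5 (0.127), Plaur (0.129) and Lgals3bp (0.144). Id2 and Id3 had the same closest gene, Plxdc1 (0.173 and 0.199), while no gene came nearer to Id1 than Rab3il1 (0.370). Tgfb1 and Tgfbr2 span less than 1 on that scale themselves, so genes like them were not among those compared, and no match is given. The libraries share cell type and treatment, so likeness over them is a description only.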

How the data were processed

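RNA sequencing measured 12 libraries in 4 groups of 3, grouped by their titles. Per the labels' protocols, total RNA was made into libraries with the NEBNext Ultra kit. The submitters' processing notes name fastp, STAR, featureCounts and DESeq2 and the build mm10, with no version or role. The authors deposited FPKM values for 54532 genes. With GENCODE M21 exon lengths, 24997 of the 25854 genes above 0, or 96.7%, gave whole reads within 0.02 at the annotated length, all 10 genes among them. The library denominators departed by at most 4.86e-05% from median-of-ratios scaling, an inference from the numbers that no label states. How strand was used is not given in the sources used here, and none of the 10 genes shares exons with another gene.

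The 11335 genes that reached 1 FPKM in 3 or more libraries were tested on log2(FPKM + 1) by limma (version 3.58.1, R version 4.3.3) (functions lmFit, contrasts.fit, eBayes; variance trend on), all 12 libraries in 1 fit of 4 group means, two-sided, with Benjamini-Hochberg adjustment over all genes tested. On simulated data for the macrophage comparison with 10574 genes tested, 99% of 100 genes changed by 1 (log2) and 100% of 100 changed by 2 were recovered, and 4.33% of calls were false. The changed genes were few, lay above a set level, and went up and down in equal number. All genes had the same set spread, and no shift of scale was simulated. In the data 69.9% of genes were called for LPS in macrophages, so these rates need not hold for them. As alternatives, the pseudocount was set to 0.1, the filter was dropped or raised to a mean of 5 FPKM, and these were also tried: TPM, quantile normalization, only the groups compared, a replicate block, no variance trend, voom on the recovered reads, and each library left out. Gene positions come from GENCODE M21 (GRCm38).

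The 10 genes, the pathway lists and the markers were chosen with earlier results of these data known. All 10 genes are named. Of the lists any gene could be named, and which was decided after values were seen. The 3 genes with the most similar profile were found for each of the 10, those of Id1, Id2 and Id3 are given in part, and those of Tgfb1 and Tgfbr2 are not given. The search motifs were chosen with the promoter sequences in view. A gene of the lists, counted with its list, is not reported here by name. Protein sequences were not used here.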

Additional observations from a re-analysis of the deposited data

Results flagged for a closer look

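For 7 of the 9 genes other than Smad6 the LPS effect in osteoclasts differed from that in macrophages by the interaction test (limma, adjusted over all genes tested), and the differences, osteoclast effect minus macrophage effect in log2(FPKM + 1), were as follows. They were 1.73 for Smad7, 1.46 for Id2, 0.92 for Id3 and 0.74 for Smad3. Smad6 had 1.73, a description with no test, since the gene passed the filter only through macrophage libraries. Id1 had 2.70, which cannot be ranked with these because Id1 was at its floor in LPS-treated osteoclasts. The differences of Skil, at -0.66, and Tgfb1, at -0.41, were negative. The Id1 value was 0.28 with a pseudocount of 0.1 and turned to -1.33 with voom, neither called, and as a log2 ratio of folds against the floor it was at most 0.75. The Skil value is not called on TPM or after quantile normalization, and the Tgfb1 value turns on both of these scales. Interactions were called for 56.6% of all genes tested.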

How the results depend on the processing

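For named genes, 792 values recomputed with all libraries kept their direction and side of the threshold, 9 passed it newly, 6 lost it and 11 turned. With 1 library left out 1130 kept both, 3 passed newly, 4 lost the call and 3 turned. On TPM, values turned for Tgfb1 with LPS in macrophages (-0.33) and in the interaction (0.16), for Tgfbr2 in untreated osteoclasts against macrophages (-0.0803) and in the interaction (0.48), for Id2 with LPS in osteoclasts (-0.00735) and for Smad2 with LPS in macrophages (-0.17). After quantile normalization the Tgfb1 values turned to -0.45 and 0.25, the Tgfbr2 interaction to 0.41 and Id2 in osteoclasts to -0.0138. With voom the Id1 interaction was -1.33. The median shifts of all genes given above are those of the scalings, and the cause of the other reversals was not tested. Leaving out 1 library moved Tgfbr2 in macrophages between -0.0508 and 0.0165 and Id2 in osteoclasts between -0.0485 and 0.139.

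Of the 10 genes, those called higher with LPS in macrophages numbered 1 on TPM and 1 after quantile normalization. With LPS in osteoclasts, 7 were called after quantile normalization, and those called lower were 5 on TPM and 6 after quantile normalization, beside 2161 and 2461 of all 11335 genes called in either direction under these scalings. Those called higher there ranged from 1 to 2 with 1 library left out, with 2 only without LPS-treated osteoclast replicate 3. In untreated osteoclasts 1 was higher on TPM. In the interaction, 0 were lower on TPM and 0 after quantile normalization. A mean of at least 5 FPKM leaves fewer genes to test. It left 4 lower for LPS in macrophages, 5 lower in untreated osteoclasts, and 5 called and 3 higher in the interaction. It also left 4851 of all genes called for LPS in macrophages, 5427 and 5694 for the cell types without and with LPS, and 4018 for the interaction.

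The labels do not say what the replicate numbers mark, so whether they pair the libraries is not known. The deviations of same-numbered libraries correlated at -0.07 to 0.10 (median 0.01) over 18 pairs, with 1 over 0.1. Between untreated and LPS-treated libraries of the same number they were 0.104, 0.0967 and -0.0529 in macrophages and 0.0718, 0.0828 and 0.0289 in osteoclasts. Such correlations cannot show whether same-numbered libraries shared a mouse or culture. With the replicate number as a block, 7914, 1930, 8787, 9512 and 6422 of all genes were called for LPS in macrophages, LPS in osteoclasts, the cell types without and with LPS, and the interaction, and the counts of the 10 genes called were 9, 4, 10, 10 and 8. Depth limits Id1 and Smad6 in osteoclasts most, where LPS-treated libraries held 0 to 1 and 9 to 26 reads.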

Other observations

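Among the other listed genes, Hamp, the hepcidin gene and a BMP target in liver, had 1.89 ± 0.73 FPKM (SD, n = 3) in LPS-treated macrophages and 0 reads in every library of the other groups. It passed the filter for testing only through the LPS-treated macrophage libraries, so its values are a description with no test. Itgb7, which encodes an integrin beta chain, was higher in untreated osteoclasts, at 37.0 ± 1.7 against 1.05 ± 0.19 FPKM in untreated macrophages (difference 4.21, adjusted p = 2.53e-13). Inhba, which encodes the activin A subunit, was 2.00 ± 0.34 FPKM in untreated macrophages and at most 3 reads per library in untreated osteoclasts, at least 74.1-fold lower. It too passed the filter only through macrophage libraries, and no test is given. Bmp6 and Bmp7 had 0 reads in all 12 libraries. Cx3cr1, the fractalkine receptor gene, was 142 ± 3.9 FPKM in untreated macrophages, 37.8 ± 3.9 FPKM after LPS, and 0.486 ± 0.16 FPKM in untreated osteoclasts.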
